A study of Mus musculus with 12 samples.

Results

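The genes described here belong to glycolysis, the pentose phosphate pathway and the hypoxia-inducible factor (HIF) response, and they were taken from the count tables by name. Of 35 names, 33 had a row in both tables, which list 17544 genes for unstimulated cells and 17874 genes after LPS. Aldoa had a second entry under the same name, so 34 entries were followed, all of which passed the filter on low counts. Vegfa and Egln3 were not analysed here. RNA was sequenced from J774A.1 cells, a mouse macrophage cell line, in 4 groups of 3 lines: WT and ACAT1 KO cells without stimulation, and WT and ACAT1 KO cells given LPS at 100 ng/ml for 2 hours. The ACAT1 KO lines were made with Cas9 and a guide to the coding sequence of Acat1, the gene of a mitochondrial acetyl-CoA acetyltransferase. The WT lines had received the same plasmid for Cas9 and GFP without a guide, and lines of both genotypes were sorted for GFP and grown as clonal populations. The paper counts 3 different lines per genotype, but wells received several sorted cells, and how the lines of a genotype relate is not given. A difference between genotypes cannot be told apart from a difference between these lines beyond the spread of 3 lines. The comparisons ask how these genes differed between WT and ACAT1 KO cells, how they responded to LPS in each genotype, and whether that response differed.

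Glycolysis splits glucose into pyruvate, and lactate dehydrogenase turns pyruvate into lactate, which leaves the cell by monocarboxylate transporters. The pentose phosphate pathway branches off at glucose 6-phosphate, makes NADPH in its oxidative arm and interconverts sugar phosphates in its non-oxidative arm. HIF-1 is a transcription factor whose alpha subunit is hydroxylated by prolyl hydroxylases in the presence of oxygen, bound by the von Hippel-Lindau protein and degraded, and many genes of glycolysis are among its known targets. Macrophages given LPS are known for a shift towards glycolysis in which HIF-1 takes part. The values below are of mRNA, so they say nothing of enzyme activity or of HIF protein.

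Libraries held 56948593 to 167280149 counts, and levels are given as CPM, counts scaled to a common library size after TMM normalization over all 12 libraries. Acat1 mRNA was 98.8 ± 15.6 CPM (SD, n = 3) in unstimulated WT and 26.8 ± 1.82 CPM (SD, n = 3) in unstimulated ACAT1 KO lines, and all 10 macrophage markers examined were present at 17.1 to 7413 CPM. Markers of 7 other cell types were without a row or, where they had one in either table, at most 12.95 CPM. Unstimulated WT replicates 1 and 2 and unstimulated ACAT1 KO replicate 2 placed 0.0450% to 0.0685% of their counts on noncoding genes that lie in exons of a gene on the other strand, while no other library exceeded 0.0158%. A term for these 3 libraries left the log2 fold change of Hif1a between genotypes at -0.55 in unstimulated cells. That term was fitted for this comparison only. All 3 libraries are unstimulated, so the trait is partly confounded with LPS. The LPS responses and the interaction were fitted without such a term, and its part in them was not tested. Of the 7 LPS-response genes examined, all rose in ACAT1 KO cells and all but Cxcl2 rose in WT cells, where Cxcl2 had a log2 fold change of 0.53 (edgeR adjusted p = 0.203).

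Levels were compared between genes as CPM per kilobase of exon, with the union of a gene's exons as its length. The orders given here hold for that length, and some change with the longest transcript. The most abundant members were the enzymes of the middle and end of glycolysis. Pkm, the pyruvate kinase that makes pyruvate and ATP, averaged 476 CPM per kilobase over the 12 libraries, Aldoa, which cleaves fructose 1,6-bisphosphate, averaged 441, and Gapdh averaged 369. The ranges of Pkm, 385 to 554, and Aldoa, 384 to 513, overlapped across libraries. Pgk1, Ldha and Tpi1 followed with averages of 282, 270 and 210 CPM per kilobase. The entry-step kinases were far lower: Hk3 averaged 25.9, Hk2 12.5 and Hk1 10.1 CPM per kilobase. The phosphofructokinases Pfkp, Pfkl and Pfkm averaged 12.8, 12.2 and 5.74 CPM per kilobase. The orders of Hk2 and Hk1 and of Pfkp and Pfkl depended on the length used. In the pentose phosphate pathway Taldo1, the transaldolase of the non-oxidative arm, averaged 170 CPM per kilobase, G6pdx, the enzyme of the committed step of the oxidative arm, averaged 88.5, and Rpia, the ribose 5-phosphate isomerase, averaged 6.99. The proton-coupled lactate exporter Slc16a3 had the lowest average, 0.370 CPM per kilobase, and lay between 0.118 and 0.598 CPM per kilobase, while its relative Slc16a1 lay between 17.7 and 26.1. The second Aldoa entry, between 0.286 and 1.70, was below Slc16a3 in the ACAT1 KO lines after LPS, with means of 0.318 and 0.381. Some of these counts may be divided among near-identical genes: Gapdh shares at least 95% identity over at least 300 bases with 37 other listed entries that together hold 13.6% as many counts as Gapdh, and Eno1 with 3 entries holding 30.3% as many.

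**Figure D1:**
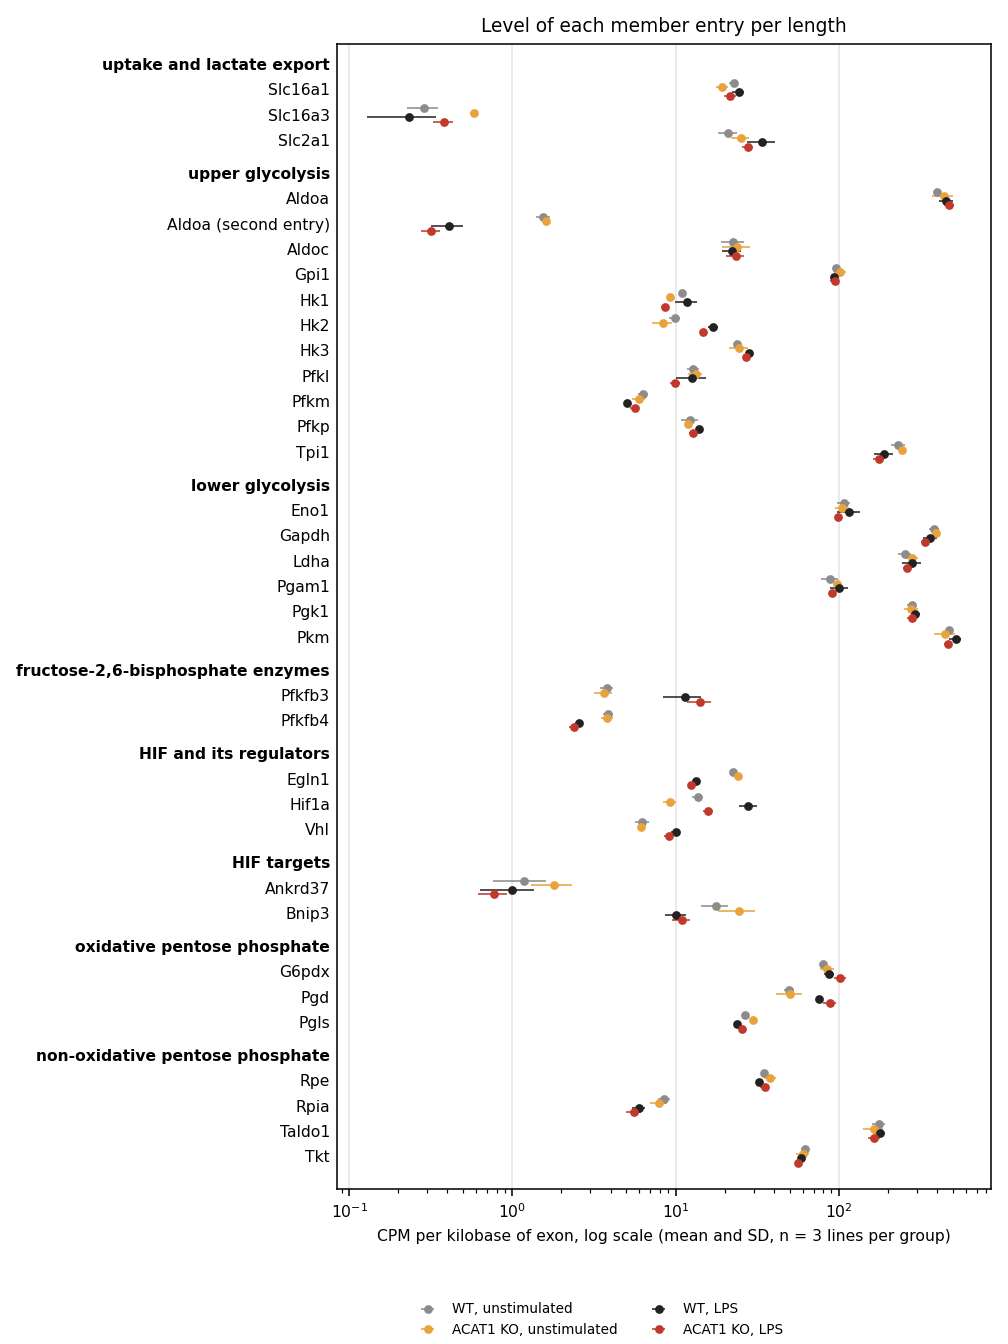
Level of each member entry as CPM per kilobase of exon on a log axis, with the mean and SD of 3 lines in each of the 4 groups, members ordered by role. Pkm, Aldoa and Gapdh lie above 300 CPM per kilobase in every group, and Slc16a3 lies below 1 in every group.

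With LPS the members moved in both directions, as genes at large did. In WT cells 7 of 34 entries rose and 8 fell (edgeR quasi-likelihood test, Benjamini-Hochberg adjusted p under 0.05), where 29.3% of all 16535 genes tested rose, 28.0% fell and 57.4% passed in all. In ACAT1 KO cells 6 entries rose and 10 fell, where 29.5% of all genes rose, 31.2% fell and 60.7% passed. The counts of members stand beside these background shares as a description, with no test. Their median log2 fold change was 0.05 in WT and -0.10 in ACAT1 KO cells, beside -0.02 and -0.03 over all genes, and the WT median was -0.04 without WT LPS replicate 1. Upper-quartile scaling moved the median of all genes to -0.23 in WT and -0.17 in ACAT1 KO cells, and the all-gene calls from 4850 higher and 4638 lower to 3628 higher and 6681 lower in WT, and from 4871 and 5166 to 3921 and 6560 in ACAT1 KO cells. Under that scaling 6 members rose and 12 fell in WT, and 5 rose and 18 fell in ACAT1 KO cells, where 62.3% and 63.4% of all genes passed. In bulk RNA, less of a transcript per cell and fewer cells that carry it cannot be told apart. LPS and unstimulated libraries of the same genotype and number deviated together from their group means, so the fit was repeated with the number as a block: 11 entries then rose and 7 fell in WT (62.0% of all genes passed), and 8 rose and 11 fell in ACAT1 KO cells (64.8% of all genes passed). Whether unstimulated and LPS libraries were prepared and sequenced together is not given in the sources used here.

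**Figure D2:**
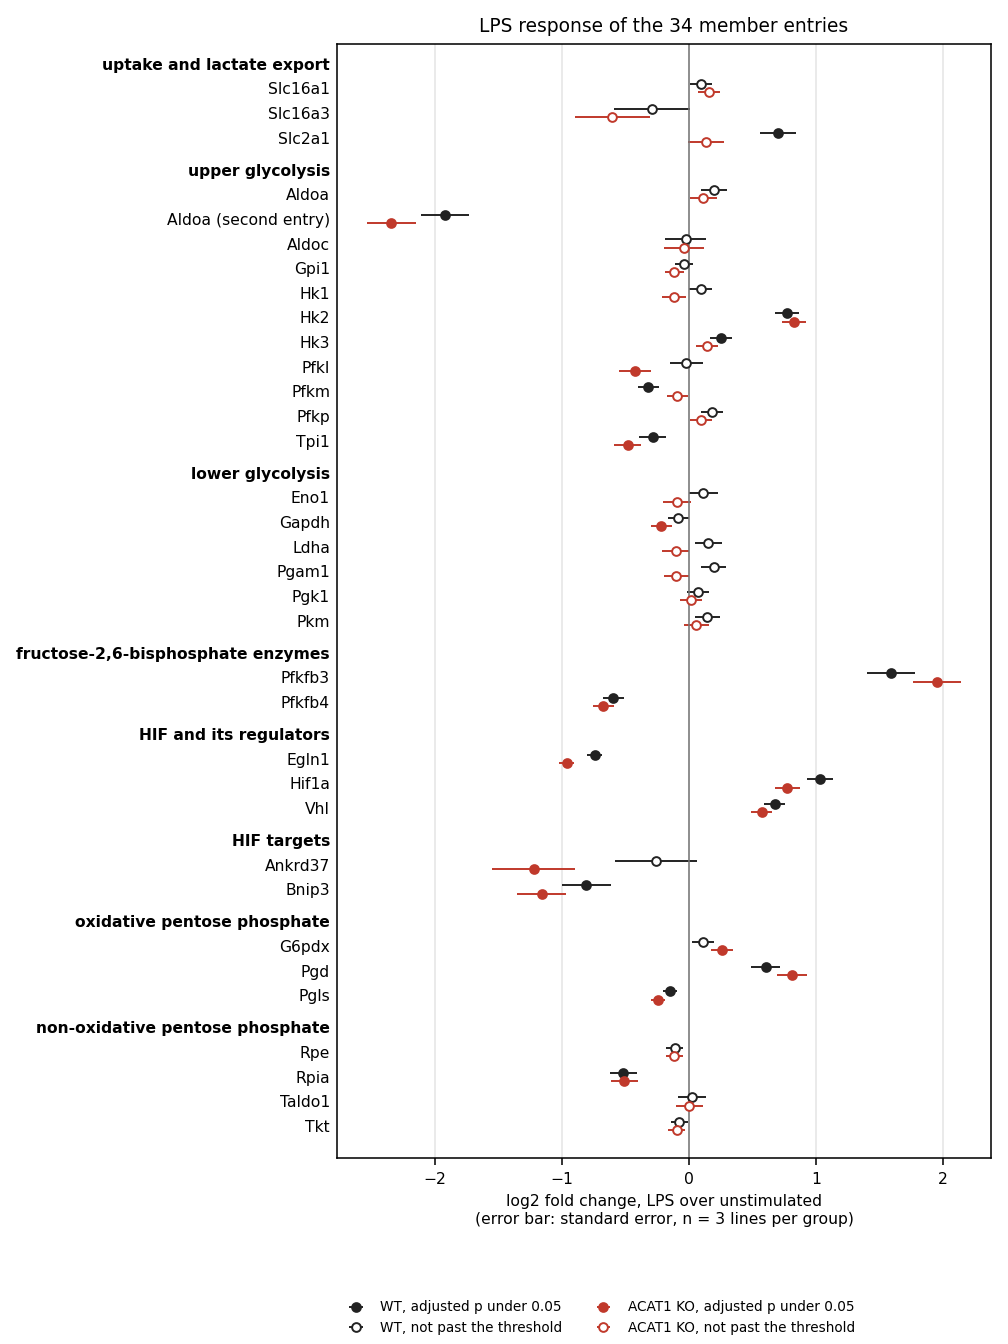
Log2 fold change of each member entry after LPS in WT (black) and ACAT1 KO (red) cells with its standard error, filled where the edgeR adjusted p is under 0.05. Pfkfb3 has the highest value in both genotypes, 1.59 and 1.96, and the second Aldoa entry the lowest, -1.92 and -2.34.

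The largest fold rise among the members was in Pfkfb3, the kinase-dominant enzyme that makes fructose 2,6-bisphosphate, an activator of phosphofructokinase. Pfkfb3 was at 26.4, 27.6 and 31.5 CPM in the unstimulated WT lines and at 99.2, 59.7 and 99.3 CPM after LPS. In ACAT1 KO lines it went from 23.7, 28.5 and 30.4 CPM to 102, 126 and 91.8 CPM. Every LPS library lay above every unstimulated library in both genotypes, with WT LPS replicate 2 the lowest of those given LPS. The rise was 3.01-fold in WT (log2 1.59, SE 0.19, edgeR adjusted p = 1.58e-05) and 3.88-fold in ACAT1 KO cells (log2 1.96, SE 0.19, edgeR adjusted p = 2.58e-06). Its relative Pfkfb4, an enzyme with the same paired kinase and phosphatase activities, moved the other way. Pfkfb4 was at 19.6, 19.4 and 17.4 CPM in unstimulated and at 12.7, 11.6 and 13.0 CPM in LPS-treated WT lines, and at 16.8, 19.9 and 18.9 CPM and then 10.8, 11.9 and 12.2 CPM in ACAT1 KO lines. It fell by 0.59 on the log2 scale in WT (SE 0.08, edgeR adjusted p = 7.14e-05) and by 0.67 in ACAT1 KO cells (SE 0.08, edgeR adjusted p = 2.31e-05).

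Among uptake and hexose phosphorylation genes, Hk2, the inducible hexokinase, rose in both genotypes. Hk2 was at 54.4, 59.6 and 63.5 CPM in unstimulated WT lines and at 109, 100.2 and 94.5 CPM after LPS, and at 47.8, 43.8 and 57.7 CPM and then 88.9, 87.5 and 89.0 CPM in ACAT1 KO lines. No library given LPS fell within the unstimulated range. The increases were 1.71-fold in WT (log2 0.77, SE 0.10, edgeR adjusted p = 2.40e-05) and 1.78-fold in ACAT1 KO cells (log2 0.83, SE 0.10, edgeR adjusted p = 1.18e-05). Slc2a1, the glucose transporter GLUT1, was at 84.8, 68.7 and 67.0 CPM in unstimulated and 147, 103 and 108 CPM in LPS-treated WT lines, a separation of the groups with a log2 fold change of 0.70 (SE 0.14, edgeR adjusted p = 0.00117). In ACAT1 KO lines Slc2a1 was at 101, 81.8 and 81.9 CPM before and 106, 91.0 and 93.8 CPM after LPS, groups that overlap, with a log2 fold change of 0.14 (SE 0.14, edgeR adjusted p = 0.428). With the replicate block the ACAT1 KO difference was 0.14 (SE 0.05, edgeR adjusted p = 0.0491), and in each of the 3 numbered pairs the LPS library was higher. Hk3, a hexokinase of blood cells, rose in WT cells by 0.25 on the log2 scale (edgeR adjusted p = 0.0262), a call that upper-quartile scaling and the absence of any of 3 libraries ended. In ACAT1 KO cells its value was 0.14 (edgeR adjusted p = 0.169, or 0.0441 with the replicate block).

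Most enzymes that carry sugar through the rest of glycolysis had small log2 fold changes with LPS. Of the 6 enzymes of lower glycolysis, with Ldha among them, none rose or fell in WT cells (edgeR, none also at an unadjusted p under 0.05), and their log2 fold changes lay between -0.08 and 0.20. With the replicate block Ldha at 0.15 (SE 0.05, edgeR adjusted p = 0.0323) and Pgam1 at 0.19 (SE 0.04, edgeR adjusted p = 0.00462) passed in WT cells, as did Aldoa at 0.19 and Pfkp at 0.19 (edgeR adjusted p = 0.0363 and 0.0132). In ACAT1 KO cells Gapdh fell by 0.22 on the log2 scale (edgeR adjusted p = 0.0449), a call lost in 6 of 12 fits that left out a library, and the other 5 enzymes lay between -0.10 and 0.06. Tpi1, the triosephosphate isomerase, fell in both genotypes, by 0.29 in WT (edgeR adjusted p = 0.0362, lost in 4 of 12 such fits) and by 0.48 in ACAT1 KO cells (edgeR adjusted p = 0.00184). Each of those 4 fits left out a WT library, and every fit without an ACAT1 KO library kept the WT call. The phosphofructokinases differed: Pfkm fell in WT by 0.32 and Pfkl in ACAT1 KO cells by 0.43 (edgeR adjusted p = 0.00561 and 0.0126), while neither passed in the other genotype with TMM scaling. Pfkm passed in ACAT1 KO cells with upper-quartile scaling (-0.24, edgeR adjusted p = 0.0154). The responses of Pfkm and Pfkl were not shown to differ between genotypes, with interactions of 0.23 and -0.40 (edgeR adjusted p = 0.625 and 0.542). With upper-quartile scaling, under which the median of all genes was itself lower, Gapdh at -0.29 and Gpi1 at -0.25 passed as lower in WT cells (edgeR adjusted p = 0.00994 and 0.00761), and Ldha at -0.25, Pgam1 at -0.25 and Gpi1 at -0.26 did in ACAT1 KO cells (edgeR adjusted p = 0.0479, 0.0487 and 0.00519). The Pfkl call was lost without unstimulated ACAT1 KO replicate 1.

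The largest fold fall was in the second Aldoa entry (ENSMUSG00000114515), annotated on chromosome 7 of GRCm38 from 126800790 to 126809108, next to the main entry (ENSMUSG00000030695) at 126795234 to 126800751 on the same strand. It was at 1.36, 1.25 and 1.11 CPM in unstimulated WT lines and at 0.410, 0.274 and 0.297 CPM after LPS, and went from 1.25, 1.29 and 1.32 CPM to 0.291, 0.241 and 0.229 CPM in ACAT1 KO lines. The groups do not overlap, and it fell by 1.92 in WT (SE 0.19, edgeR adjusted p = 3.56e-06) and by 2.34 in ACAT1 KO cells (SE 0.19, edgeR adjusted p = 6.63e-07) on the log2 scale. The main Aldoa entry, at 397 CPM per kilobase in unstimulated WT lines against 1.55 for the second entry, had log2 fold changes of 0.20 and 0.11 (edgeR adjusted p = 0.126 and 0.362). The level of the Aldoa name as a whole therefore follows the main entry.

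In the pentose phosphate pathway Pgd, the 6-phosphogluconate dehydrogenase of the oxidative arm, rose with LPS. Pgd was at 302, 311 and 346 CPM in unstimulated WT lines and at 499, 465 and 494 CPM after LPS, and at 386, 271 and 318 CPM and then 627, 523 and 561 CPM in ACAT1 KO lines. The groups were apart in each genotype, with log2 fold changes of 0.60 (SE 0.12, edgeR adjusted p = 0.000729) and 0.81 (SE 0.12, edgeR adjusted p = 6.85e-05). G6pdx, upstream of it, rose in ACAT1 KO cells by 0.26 (edgeR adjusted p = 0.0216) and was at 0.11 in WT cells (edgeR adjusted p = 0.294). The G6pdx call was lost with upper-quartile scaling and in 3 of 12 fits without a library. Each of those 3 fits left out an ACAT1 KO library. Of the exon bases of G6pdx, 13.6% lie under exons of the other strand. Pgls, the lactonase between them, fell by 0.15 in WT and by 0.24 in ACAT1 KO cells (edgeR adjusted p = 0.0351 and 0.00266), and the WT call ended with the replicate block (edgeR adjusted p = 0.0575) and in 4 of 12 fits without a library. Those 4 fits each left out a WT library.

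Of the 4 enzymes of the non-oxidative arm, Rpia passed the test in both genotypes, and with TMM scaling of all libraries the other 3 did not in either. Rpia was at 41.6, 46.5 and 49.1 CPM in unstimulated and 29.2, 35.2 and 31.5 CPM in LPS-treated WT lines, and at 40.9, 38.2 and 48.0 CPM and then 26.9, 29.5 and 32.8 CPM in ACAT1 KO lines. It fell by 0.52 (SE 0.11, edgeR adjusted p = 0.00127) and by 0.51 (SE 0.11, edgeR adjusted p = 0.0013) on the log2 scale, without overlap of the groups. Rpe, Tkt and Taldo1, the epimerase, transketolase and transaldolase, had log2 fold changes between -0.12 and 0.02 in both genotypes. With upper-quartile scaling Rpe and Tkt passed as lower in both genotypes, at -0.32 and -0.28 in WT (edgeR adjusted p = 0.00092 and 0.00193) and at -0.26 and -0.25 in ACAT1 KO cells (edgeR adjusted p = 0.00317 and 0.00472), and both passed as lower in ACAT1 KO cells without unstimulated ACAT1 KO replicate 2.

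Of the HIF genes, Hif1a, which encodes the HIF-1 alpha subunit, rose in both genotypes and Egln1, the main prolyl hydroxylase acting on it, fell. Hif1a (ENSMUSG00000021109, chromosome 12 of GRCm38, 73901375 to 73947530, plus strand) was at 87.1, 78.2 and 75.9 CPM in unstimulated WT lines and at 184, 166 and 144 CPM after LPS, and went from 60.4, 51.3 and 51.5 CPM to 101, 89.9 and 88.6 CPM in ACAT1 KO lines. In both genotypes the LPS libraries were all above the unstimulated ones, and the rise was 2.05-fold in WT (log2 1.03, SE 0.10, edgeR adjusted p = 3.09e-06) and 1.71-fold in ACAT1 KO cells (log2 0.78, SE 0.10, edgeR adjusted p = 3.08e-05). Egln1 went from 83.5, 80.5 and 76.9 CPM to 50.6, 48.1 and 45.5 CPM in WT lines, and from 88.9, 88.8 and 83.1 CPM to 44.6, 46.1 and 43.1 CPM in ACAT1 KO lines. Its groups were far apart, with a fall of 0.74 in WT (SE 0.06, edgeR adjusted p = 5.23e-07) and of 0.96 in ACAT1 KO cells (SE 0.06, edgeR adjusted p = 5.28e-08) on the log2 scale. Vhl, whose product targets hydroxylated HIF for degradation, rose from 16.5, 19.7 and 19.9 CPM to 32.0, 28.7 and 29.2 CPM in WT lines and from 18.1, 17.8 and 18.9 CPM to 25.4, 27.7 and 28.5 CPM in ACAT1 KO lines. The groups do not overlap, and the log2 fold changes were 0.68 (SE 0.08, edgeR adjusted p = 1.85e-05) and 0.57 (SE 0.08, edgeR adjusted p = 6.59e-05).

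Bnip3 and Ankrd37, known HIF targets outside glycolysis, did not rise when Hif1a did. These 2 do not stand for all such targets: among other genes of the HIF pathway, counted below, some rose and some fell with LPS. Bnip3, a mitochondrial protein of mitophagy, was at 45.0, 43.8 and 31.1 CPM in unstimulated WT lines and at 25.9, 23.2 and 19.4 CPM after LPS, and at 69.5, 54.5 and 41.5 CPM and then 27.8, 24.8 and 21.7 CPM in ACAT1 KO lines. All LPS libraries lay below all unstimulated libraries of their genotype, and Bnip3 fell by 0.81 (SE 0.19, edgeR adjusted p = 0.00344) and by 1.16 (SE 0.19, edgeR adjusted p = 0.000245) on the log2 scale. Ankrd37, an ankyrin-repeat gene, was low, at 2.57, 1.53 and 1.38 CPM in unstimulated and 2.15, 1.08 and 1.35 CPM in LPS-treated WT lines, which overlap. In ACAT1 KO lines Ankrd37 went from 3.20, 3.30 and 1.87 CPM to 1.43, 1.20 and 0.952 CPM, which do not. The log2 fold changes were -0.26 in WT (SE 0.32, edgeR adjusted p = 0.526) and -1.22 in ACAT1 KO cells (SE 0.32, edgeR adjusted p = 0.00625). Exons of the opposite strand cover 22.3% of the exon bases of Bnip3 and 26.4% of those of Ankrd37, and whether the counting used the strand of the reads is not given in the sources used here.

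**Figure D3:**
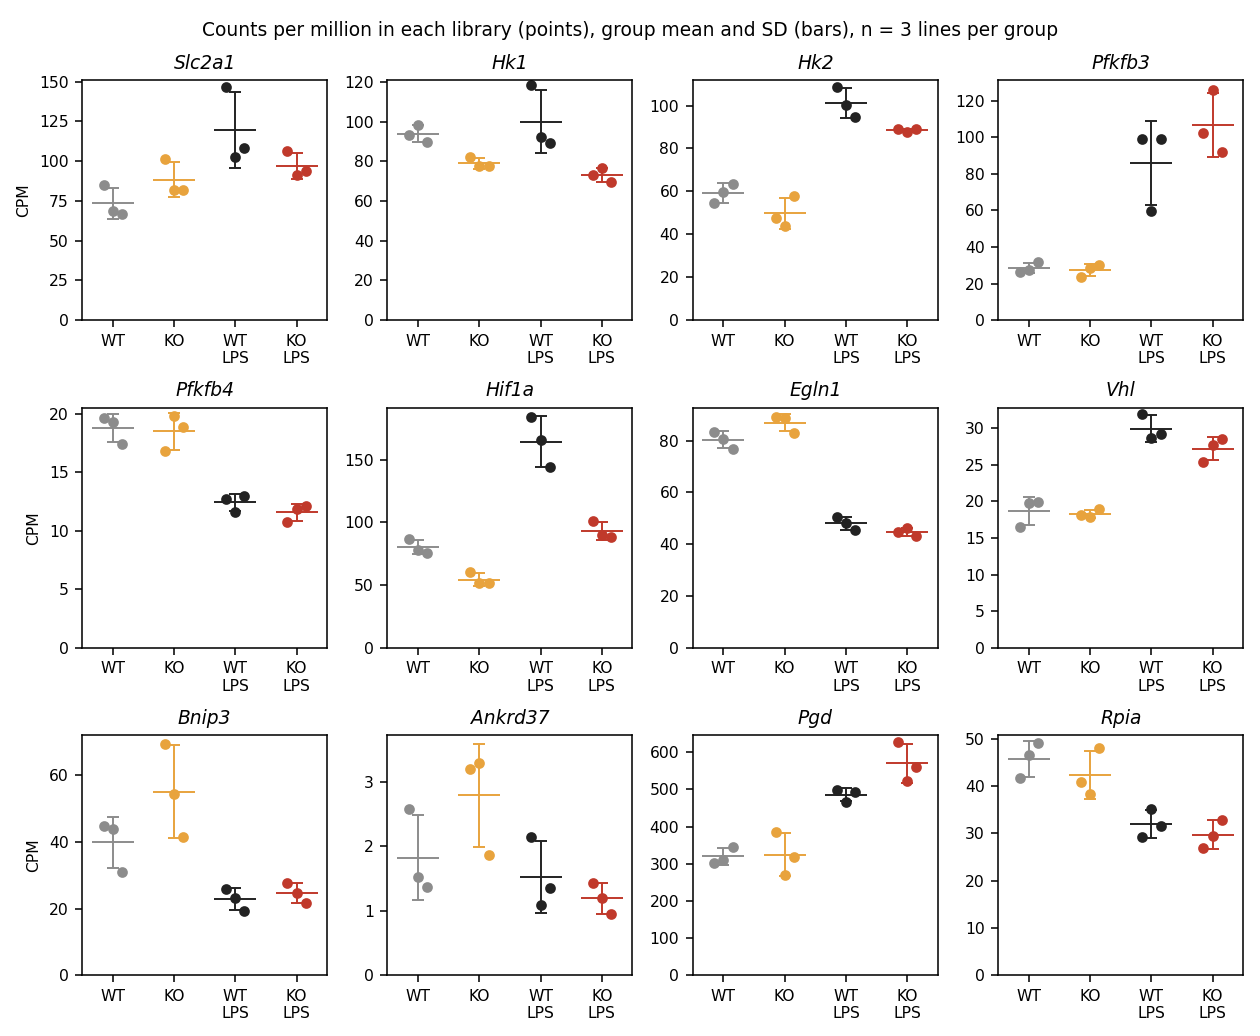
CPM of 12 members in each of 12 libraries (points) with the mean and SD of each group (bars), every axis starting at 0. Hif1a in the ACAT1 KO lines lies below the WT lines in both states, and Pfkfb3, Hk2, Pgd and Vhl lie above, and Egln1, Pfkfb4, Bnip3 and Rpia below, their unstimulated range after LPS in both genotypes.

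The letters ACGTG, a form of the core of the hypoxia response element, were searched in the 250 bases before each RefSeq transcription start of these genes. Matches on either strand were counted (CACGT on the printed strand when the match is on the other). The form GCGTG was not searched. ACGTG was present in 41.3% of the 46 windows of measured members, against 16.6% of the 32851 windows of all genes in the table, and in 16 of 33 members with any window holding it (48.5%), against 24.8% of 10470 genes of both count tables that have a window. Of the members that rose with LPS in WT cells 5 of 7 held it, of those that fell 3 of 7, and of the rest 8 of 19. In ACAT1 KO cells these counts were 3 of 6, 3 of 9 and 10 of 18. The windows that hold it are printed here for the members that responded to LPS in WT cells by at least 0.5 on the log2 scale, since these carry the LPS result, from RefSeq on GRCm38.p6, 5′ to 3′ on the gene's strand and ending at the base before the start, with matches in capitals. Where the letters CACGTG occur, a match on each strand overlaps by 4 bases and both are counted.
Pfkfb3, start nearer the 5′ end of the gene (chr2:11553930-11554179, minus strand): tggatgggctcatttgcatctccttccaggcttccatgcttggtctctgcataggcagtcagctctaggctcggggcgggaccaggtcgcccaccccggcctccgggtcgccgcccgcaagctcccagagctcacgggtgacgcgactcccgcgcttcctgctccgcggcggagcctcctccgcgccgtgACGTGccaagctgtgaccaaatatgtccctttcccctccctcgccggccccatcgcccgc
Pfkfb3, internal start (chr2:11502091-11502340, minus strand): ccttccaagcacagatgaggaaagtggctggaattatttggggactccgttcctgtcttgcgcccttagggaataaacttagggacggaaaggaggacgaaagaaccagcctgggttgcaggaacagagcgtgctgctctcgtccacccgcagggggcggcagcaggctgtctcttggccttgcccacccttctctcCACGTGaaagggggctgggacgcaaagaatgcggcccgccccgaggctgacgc
Hk2 (chr6:82774455-82774704, minus strand): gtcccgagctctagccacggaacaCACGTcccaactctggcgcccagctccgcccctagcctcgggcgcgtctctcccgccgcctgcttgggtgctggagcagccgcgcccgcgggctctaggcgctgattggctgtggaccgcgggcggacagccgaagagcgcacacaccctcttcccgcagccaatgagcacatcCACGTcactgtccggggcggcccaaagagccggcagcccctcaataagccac
Slc2a1 (chr4:119108495-119108744, plus strand): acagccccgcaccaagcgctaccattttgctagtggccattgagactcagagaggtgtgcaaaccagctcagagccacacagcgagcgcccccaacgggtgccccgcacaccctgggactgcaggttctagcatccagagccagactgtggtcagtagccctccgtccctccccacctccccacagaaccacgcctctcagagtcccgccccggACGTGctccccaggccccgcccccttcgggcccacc
Hif1a (chr12:73907617-73907866, plus strand): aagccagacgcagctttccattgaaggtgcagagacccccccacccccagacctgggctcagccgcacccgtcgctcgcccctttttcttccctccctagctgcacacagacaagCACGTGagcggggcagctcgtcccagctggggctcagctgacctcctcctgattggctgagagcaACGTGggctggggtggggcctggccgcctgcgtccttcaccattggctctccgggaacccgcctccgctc
Egln1 (chr8:124949255-124949504, minus strand): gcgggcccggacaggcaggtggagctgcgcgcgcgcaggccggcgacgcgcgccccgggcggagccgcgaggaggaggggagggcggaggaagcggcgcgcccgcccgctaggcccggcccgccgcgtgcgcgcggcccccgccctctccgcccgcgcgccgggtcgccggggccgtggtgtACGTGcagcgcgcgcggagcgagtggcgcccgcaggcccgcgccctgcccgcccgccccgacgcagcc
Bnip3 (chr7:138909507-138909756, minus strand): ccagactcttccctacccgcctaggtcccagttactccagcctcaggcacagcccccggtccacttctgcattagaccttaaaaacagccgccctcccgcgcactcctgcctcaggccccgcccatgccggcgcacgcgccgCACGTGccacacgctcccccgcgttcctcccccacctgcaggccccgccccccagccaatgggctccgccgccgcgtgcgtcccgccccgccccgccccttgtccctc
Matches begin 60 bases before the 5′ start of Pfkfb3, 53 and 52 bases before its internal start, 226 and 52 before that of Hk2, 36 before that of Slc2a1, 135, 134 and 70 before that of Hif1a, 68 before that of Egln1 and 108 and 107 before that of Bnip3. The windows of Pfkfb4, Pgd, Vhl and Rpia, which also responded, hold no match to ACGTG, and GCGTG was not searched in them. The second Aldoa entry also responded, but the 3 windows under the name Aldoa do not lie at its start, so none is printed for it. A match is a description of the sequence, and the genes that hold it lie among those that rose, those that fell and those that did neither.

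Between genotypes few members differed. In unstimulated cells 0 of 34 entries were higher in ACAT1 KO lines and 1, Hif1a, was lower, where 0.742% of 16440 genes were higher, 1.17% lower and 1.91% passed in all. At an unadjusted p under 0.05 there were 5 entries, against 19.7% of all genes. The groups did not overlap for 2 entries higher and 3 lower, against 25.5% of all genes in either direction. After LPS 0 entries were higher and 2, Hif1a and Hk1, were lower, where 5.93% of 16483 genes were higher, 9.12% lower and 15.1% passed. Of the 34 entries 4 were higher and 5 lower without overlap after LPS, against 37.8% of all genes in either direction. DESeq2 called 1 higher and 2 lower members in unstimulated cells, where it called 10.0% of all genes, and 2 of each after LPS, where it called 18.3%. The members' median log2 fold change was 0.05 in unstimulated cells and -0.08 after LPS, beside 0.0035 and -0.0041 over all genes.

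**Figure D4:**
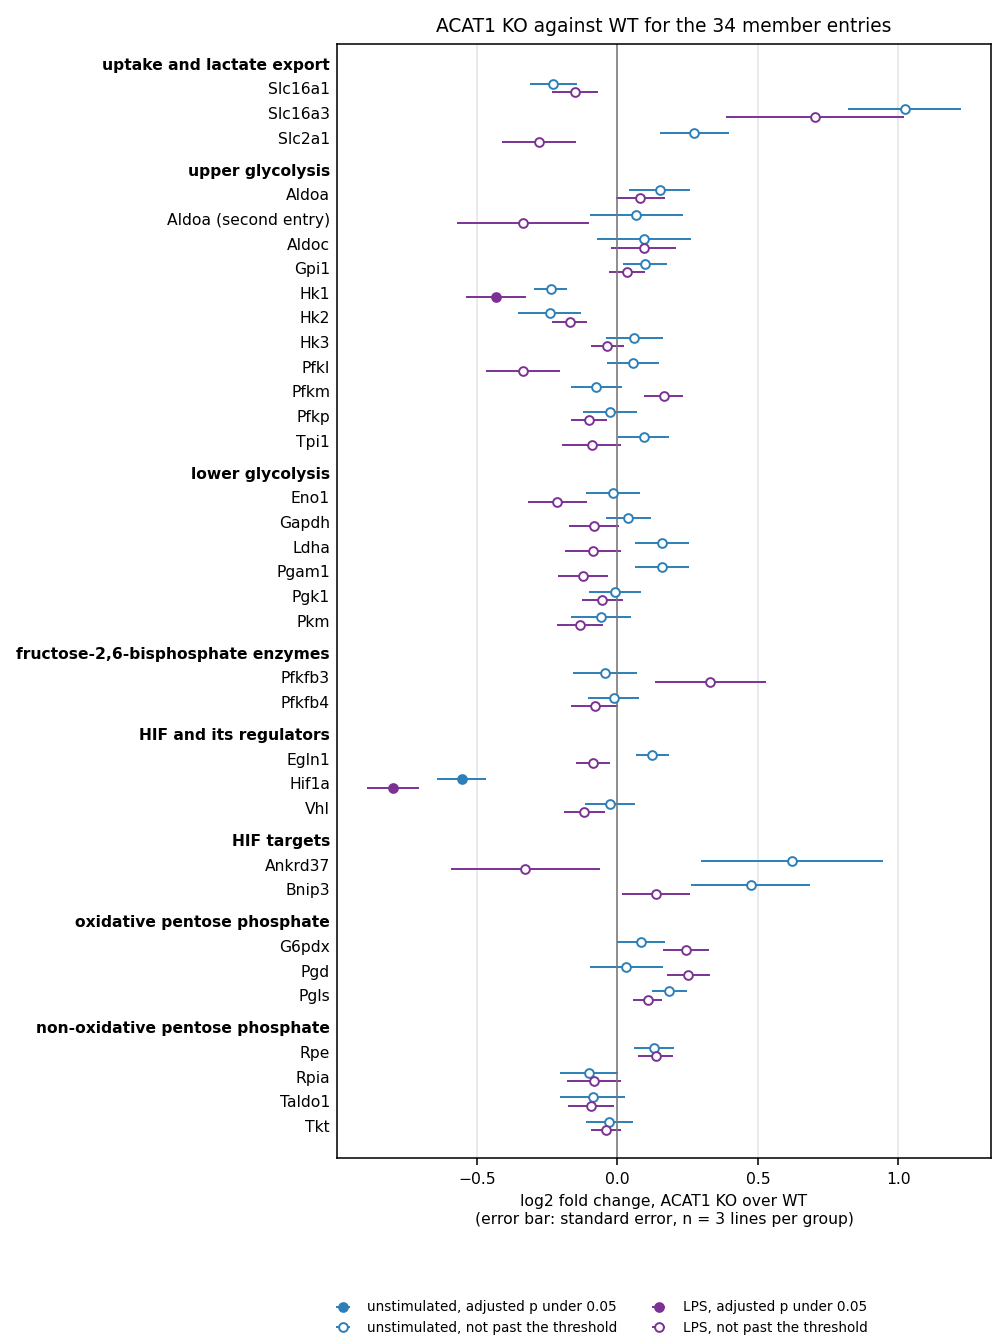
Log2 fold change of each member entry in ACAT1 KO over WT lines without stimulation (blue) and after LPS (purple) with its standard error, filled where the edgeR adjusted p is under 0.05. Hif1a is filled in both states at -0.55 and -0.80, Hk1 after LPS at -0.43, and no other entry is filled.

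Hif1a was the member whose genotypes differed in both states. The per-library values given above show every ACAT1 KO line below every WT line in each state: 54.4 ± 5.19 against 80.4 ± 5.94 CPM without stimulation and 93.2 ± 6.86 against 165 ± 20.0 CPM after LPS (SD, n = 3 for each). It was 1.47-fold lower in unstimulated ACAT1 KO cells (log2 -0.55, SE 0.09, edgeR adjusted p = 0.0403) and 1.74-fold lower after LPS (log2 -0.80, SE 0.09, edgeR adjusted p = 0.00324). The difference after LPS passed in all 6 fits that left out a library, between -0.71 and -0.88. The unstimulated difference kept its size, between -0.51 and -0.65, but passed in 1 of 6 such fits, the one without WT replicate 3, and was lost without WT replicate 1 or 2 or any ACAT1 KO replicate, with adjusted p up to 0.16. Each of those fits has 5 libraries.

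Genes of chromosome 12, where Hif1a lies, were also mostly lower in ACAT1 KO lines in both states. Over the 585 genes of chromosome 12 tested in unstimulated cells the median log2 fold change was -0.26, the lowest of the 19 autosomes and X, and 82.9% of them were negative. After LPS the median over 584 genes was -0.28 and 43.2% passed the test, against 15.1% of all genes. Less the median of its chromosome, Hif1a was at -0.29 in unstimulated cells and at -0.52 after LPS. Among genes within 5 Mb of Hif1a, 12 of 79 were further below 0 than Hif1a in unstimulated cells and 4 of 80 after LPS, with neighbour medians of -0.27 and -0.30. The part of this chromosome-wide difference in that of Hif1a was not tested, and this look at neighbours was made after the values were seen.

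Hk1, the hexokinase found in most tissues, was at 93.3, 98.6 and 90.0 CPM in unstimulated WT lines and at 82.4, 77.5 and 77.7 CPM in ACAT1 KO lines. After LPS it was at 119, 92.6 and 89.3 CPM in WT and at 73.0, 76.6 and 69.8 CPM in ACAT1 KO lines. The ACAT1 KO lines were below the WT lines in both states, and WT replicate 1 after LPS stood above the rest. The log2 difference was -0.24 without stimulation (SE 0.06, edgeR adjusted p = 0.0958) and -0.43 after LPS (SE 0.11, edgeR adjusted p = 0.031). The call after LPS was kept in 2 of 6 fits that left out a library and lost without WT replicate 2 or any ACAT1 KO replicate.

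Other members near the threshold, chosen after their values were seen, were these. Slc16a3 was at 1.71, 1.15 and 1.72 CPM in unstimulated WT lines and at 3.18, 3.14 and 2.92 CPM in ACAT1 KO lines, all above the WT lines, with a log2 difference of 1.02 (SE 0.20, edgeR adjusted p = 0.0618). It passed with DESeq2 (adjusted p = 8.59e-05), limma-voom (adjusted p = 0.0468), a minimum of 10 counts in every library (adjusted p = 0.043) and the term for opposite-strand libraries (adjusted p = 0.0346). After LPS Slc16a3 was at 1.37, 0.629 and 1.74 CPM in WT and 2.19, 2.18 and 1.71 CPM in ACAT1 KO lines, which overlap (log2 0.70, SE 0.32, edgeR adjusted p = 0.175). In ACAT1 KO cells its LPS response was -0.60 (SE 0.30, edgeR adjusted p = 0.0962) and passed with the replicate block (-0.61, SE 0.17, edgeR adjusted p = 0.0129). In the oxidative pentose phosphate arm, ACAT1 KO lines were above WT lines after LPS for Pgd (log2 0.25, edgeR adjusted p = 0.0626) and G6pdx (log2 0.25, edgeR adjusted p = 0.0805), neither past the threshold, and both passed with DESeq2 (adjusted p = 0.0255 and 0.0459). Bnip3 and Ankrd37 were at 0.48 and 0.62 in unstimulated cells (edgeR adjusted p = 0.276 and 0.349), with overlapping groups. The 6 enzymes of lower glycolysis lay between -0.06 and 0.16 in unstimulated cells and between -0.21 and -0.05 after LPS, none past the threshold.

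The genotype by LPS interaction tests whether the LPS response itself differed. No member passed with edgeR and none with DESeq2 (edgeR: 31 of 16535 genes, 0.187%), and 3 entries had an unadjusted p under 0.05, against 8.92% of all genes. These were Slc2a1, Egln1 at -0.22 and Pfkl at -0.40 (edgeR adjusted p = 0.394 for Egln1 and 0.542 for Pfkl). With the replicate block 288 genes, 1.74%, passed, and Slc2a1 was the 1 member among them. Its response was lower in ACAT1 KO than in WT cells by 0.55 on the log2 scale with the block (SE 0.08, edgeR adjusted p = 0.015) and by 0.56 without it (SE 0.20, edgeR adjusted p = 0.37). Behind it were the levels given above, with ACAT1 KO lines averaging 88.3 against 73.5 CPM in WT lines before LPS and 97.0 against 119 CPM after it. The Hif1a interaction was -0.26 (SE 0.14, edgeR adjusted p = 0.66, or 0.141 with the block), so that its 2.05-fold and 1.71-fold rises were not shown to differ. For Ankrd37, which fell in ACAT1 KO cells and did not pass in WT cells, the interaction was -0.97 (SE 0.46, edgeR adjusted p = 0.579, or 0.081 with the block).

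Shares of isoforms within a family were taken per length of the union of exons, and each is given with an exact permutation test of 3 lines against 3, two-sided, which cannot go below 0.1. Pfkfb3 made up 49.4% ± 3.92 of the Pfkfb3 and Pfkfb4 total in unstimulated WT lines and 81.1% ± 3.74 after LPS, and 48.9% ± 1.84 and 85.4% ± 2.21 in ACAT1 KO lines (SD, n = 3, exact p = 0.1 for LPS in each genotype). All 6 LPS libraries, at 76.8% or more, lay above all 6 unstimulated libraries, at 53.9% or less. Hk2 went from 22.2% ± 1.17 to 29.7% ± 1.11 of the hexokinase total in WT and from 19.8% ± 2.12 to 29.3% ± 0.689 in ACAT1 KO lines (SD, n = 3, exact p = 0.1 in each). Hk3 held the largest share in every group, between 49.7% and 58.1% on average. Hk1 held 20.6% ± 2.30 in WT and 17.0% ± 0.980 in ACAT1 KO lines after LPS (SD, n = 3, exact p = 0.1). Slc16a3 was 1.25% ± 0.301 of the Slc16a1 and Slc16a3 total in unstimulated WT and 2.92% ± 0.271 in ACAT1 KO lines, and 0.968% ± 0.455 and 1.73% ± 0.106 after LPS (SD, n = 3, exact p = 0.1 in each state). Taking the longest transcript as the length moved the Hk1 share of unstimulated WT lines from 24.7% to 36.7%. The order of Hk1 and Hk2 depended on this choice: after LPS in WT lines Hk1 held 20.6% and Hk2 29.7% by the union of exons, but 31.5% and 24.8% by the longest transcript.

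**Figure D5:**
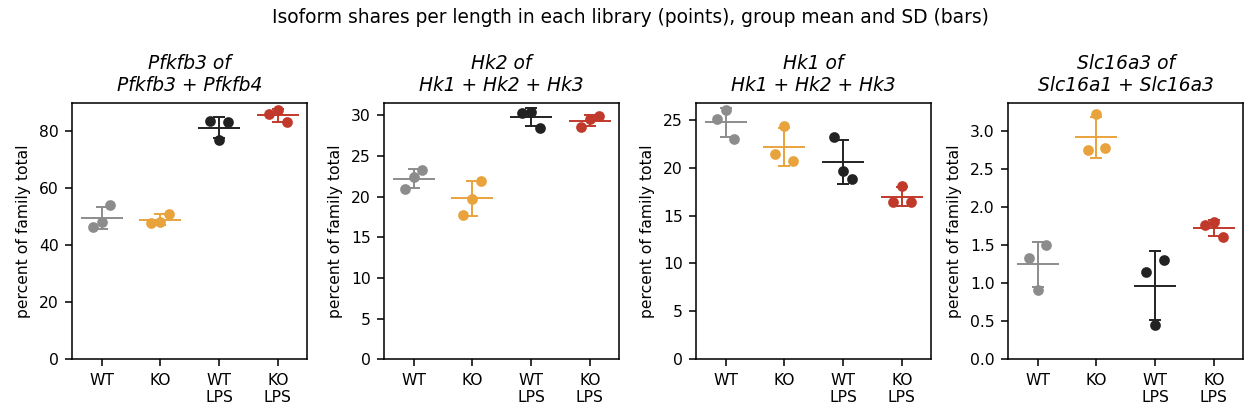
Share of an isoform in its family's total per length, in percent, in each library (points) with group mean and SD (bars). Pfkfb3 lies at or below 53.9% in the unstimulated libraries and at or above 76.8% after LPS in both genotypes, and Slc16a3 is higher in ACAT1 KO than in WT lines in both states.

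Other genes of these pathways, from a list of 86 names of which 69 were in both tables, were counted in the same fits. In unstimulated cells 1 was higher and 3 lower in ACAT1 KO cells, where 1.91% of all genes passed. These were Arnt2, a HIF beta subunit, at a log2 fold change of 0.85 (SE 0.15), Ddit4, a stress-induced inhibitor of mTORC1, at -1.70 (SE 0.15), Hilpda, a lipid droplet protein, at -0.71 (SE 0.11), and Slc16a7, a monocarboxylate transporter, at -0.54 (SE 0.08). Their edgeR adjusted p were 0.0464, 0.0124, 0.0403 and 0.039. After LPS 4 were higher and 7 lower of 68 tested, where 15.1% of all genes passed. The 5 with the smallest p were Anxa2 at -0.83, the sugar transporter Slc2a6 at 0.46, the glucose transporter Slc2a3 at -0.44, Slc16a7 at -0.43 and the adenylate kinase Ak4 at 0.99 (edgeR adjusted p from 0.00818 to 0.0257). Ddit4 was at 66.5 ± 9.31 CPM in WT and 20.4 ± 3.47 CPM in ACAT1 KO lines without stimulation (SD, n = 3).

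With LPS 17 of these 69 rose and 24 fell in WT cells, where 29.3% of all genes rose and 28.0% fell, and 15 rose and 30 fell in ACAT1 KO cells, where 29.5% of all genes rose and 31.2% fell. In both genotypes more of the list fell than rose. Its median log2 fold change was -0.05 in WT and -0.22 in ACAT1 KO cells, beside -0.02 and -0.03 over all genes, a description with no test. Among the 31 genes of glucose transport and glycolysis 5 rose and 15 fell in WT and 4 rose and 15 fell in ACAT1 KO cells. Among the 30 of the HIF pathway 11 rose and 7 fell in WT and 10 rose and 10 fell in ACAT1 KO cells. The 5 with the smallest p, in WT as in ACAT1 KO cells, were the syndecan Sdc4, Slc2a6, Zfp395, the mitochondrial PEP carboxykinase Pck2 and the glycogen synthase Gys1. Their log2 fold changes in WT cells were 4.07 for Sdc4, 1.56 for Slc2a6, -3.09 for Zfp395, -1.22 for Pck2 and -0.79 for Gys1. In ACAT1 KO cells they were 5.14 for Sdc4, 1.76 for Slc2a6, -3.43 for Zfp395, -1.45 for Pck2 and -0.96 for Gys1 (edgeR adjusted p at most 1.77e-07). None of the list passed for the interaction with edgeR, and 4 did with the replicate block: Sdc4, Ndrg1, Pgm2l1 and Anxa2.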

How the data were processed

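Gene counts of 12 RNA-seq libraries, 3 lines in each of 4 groups, were analysed, and groups and replicate numbers were taken from the sample labels. In each of the tables deposited for the unstimulated and the LPS state, the authors give raw integer counts for each gene, obtained after trimming with Trimmomatic 0.33, alignment to GRCm38 with HISAT2 and quantification with StringTie. The step that gave whole counts and its strand setting are not given in the sources used here. After 59 and 57 repeated entries were removed, 17521 of 17544 and 17849 of 17874 listed genes matched the GENCODE annotation, and 16699 genes were in both tables. The tables hold only genes counted at 4 or more in 5 or more libraries of a state, so a gene silent in 1 genotype can lack a row. Not used were 12 columns with log2 values of single libraries and the columns of the authors' own comparisons, which hold fold changes and p-values.

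Counts were fitted with edgeR 4.0.16 in R 4.3.3 (filterByExpr, TMM, quasi-likelihood F test, two-sided, Benjamini-Hochberg adjustment over all genes tested, threshold 0.05). The standard error of a log2 fold change was its size divided by the square root of F. Genotypes were compared within each state on 6 libraries. LPS responses and the interaction came from a single fit of all 12. The test was run on simulated data first. For every pair of libraries of a group the chi-square over its degrees of freedom was at least 31.7, so none was counted as a copy. The replicates are separate lines, and their spread, not counting error, limits the precision at 56948593 to 167280149 counts per library. Deviations of same-numbered unstimulated and LPS libraries of a genotype from their group means correlated from 0.139 to 0.454 over 11961 genes of at least 1 CPM (0.0913 to 0.307 over all 16535), against -0.344 to 0.0976 for different numbers, so the numbers were taken to pair these libraries. This pairing is inferred from the data. Deviations from a group mean cancel within the group, so positive values for the same number push those for different numbers down. The range for different numbers is therefore not an independent baseline. For ACAT1 KO replicate 2 the value was 0.139, beside 0.0976 as the highest for different numbers. Deviations of same-numbered WT and ACAT1 KO libraries of a state correlated from -0.412 to 0.745, and these libraries were not taken to pair. The value was 0.745 for unstimulated replicates 2 and also for unstimulated replicates 3, above every value of the libraries taken to pair. Its cause was not tested.

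The members, the gene lists and the wider pathway list were chosen with earlier results of these data known. Values in every library are printed for members past the threshold between genotypes or with LPS at an absolute log2 fold change of at least 0.5, at most 12 per comparison. At most 5 genes of the wider list are named per comparison. Promoter windows are from RefSeq (GRCm38.p6) and all measured members had one. Near-identical transcripts were found with BLAST 2.17.0. The alternatives were DESeq2 1.42.0, limma-voom (limma 3.58.1), relative log expression and upper-quartile scaling, no filter, at least 10 counts in every library, other sets of libraries in the fit, the replicate block and each library left out. A term for the opposite-strand libraries and the longest transcript as length were added after the data were seen.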

Additional observations from a re-analysis of the deposited data

Results flagged for a closer look

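The response of Slc2a1 to LPS differed between genotypes by a test of the difference itself when the replicate number was kept as a block, with an interaction of -0.5502 on the log2 scale (SE 0.0767, edgeR adjusted p = 0.015). Without the block it was -0.56 (SE 0.20, edgeR adjusted p = 0.37). From unstimulated to LPS, the same-numbered WT lines went from 84.8 to 147, from 68.7 to 103 and from 67.0 to 108 CPM, and the ACAT1 KO lines from 101 to 106, from 81.8 to 91.0 and from 81.9 to 93.8 CPM. The value with the block rests on a pairing of libraries that was inferred from the data. Groups of 3 are too small for a search for single outlying samples.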

How the results depend on the processing

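Among the log2 fold changes of called members under the alternatives, 630 kept their direction and their side of the threshold, 33 lost the threshold and 0 changed sign. This tally covers only members called as reported, so calls gained under an alternative are not in it. For the LPS responses it includes fits that left out a library of the other genotype. For genotype in unstimulated cells 314 genes and 1 member passed as reported, against 1641 genes and 3 members with DESeq2, 2 members with limma-voom, 475 genes and 2 members with at least 10 counts in every library, 1353 genes with all 12 libraries fitted together, 151 genes with the replicate block, 664 genes and 2 members with the term for opposite-strand libraries, and 7 to 522 genes and 0 to 1 member without a library. After LPS 2481 genes and 2 members passed as reported, against 3021 genes and 4 members with DESeq2, 2230 genes and 5 members with the replicate block (Hif1a, Hk1 and Pfkl lower, G6pdx and Pgd higher), and 867 to 2245 genes and 1 to 3 members without a library. For the interaction 31 genes and 0 members passed as reported, against 301 genes with DESeq2, 11 with limma-voom, 288 genes and 1 member with the replicate block, and 2 to 41 genes without a library. The members' median log2 fold change with LPS was -0.1611 in WT and -0.2445 in ACAT1 KO cells with upper-quartile scaling, and -0.04124 to 0.06836 and -0.1324 to -0.02705 without a library. The cause of these shifts was not tested. Fits without a library have fewer samples. The replicate block moved no other member's call than those named here and in the report. Between genotypes the block sets same-numbered WT and ACAT1 KO lines together. Those lines share only a number and were not taken to pair, so the calls of the block between genotypes stand on no known pairing. With the longest transcript as length 34 isoform shares moved by more than the spread of lines and 14 did not. Lines, not depth, limit most members, and Slc16a3, Ankrd37 and the second Aldoa entry are the low ones, under 4 CPM in every library.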
